A study of Homo sapiens with 8 samples.

Results

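The lysyl oxidase family holds 5 genes, *LOX*, *LOXL1*, *LOXL2*, *LOXL3* and *LOXL4*, out of 58051 genes counted in each library. The family was chosen from the measured values, for the large difference of *LOXL4* between serum-free and serum-fed cells, so that the serum contrast of its members is given as a description and carries no test. A375 is an established human melanoma cell line. Total RNA depleted of ribosomal RNA was sequenced in pairs of reads from 4 wild-type lines of it, WT1 to WT4, each kept for 12 h either in DMEM with 10% FBS (the serum group, n = 4) or in DMEM without it (the serum-free group, n = 4), with 1 library per line and condition. For WT4 the deposited counts were named differently, so the identity of that line is known from its labels. The study's methods give single-cell colonies as the source of its knockout lines, and call its wild-type lines parental to these. How WT1 to WT4 were separated was not found in the labels, so p-values measure the spread between these libraries, which may be technical. The total on genes was between 29759279 and 67101005 reads in serum libraries and between 37847737 and 73341551 in serum-free ones. Reads that mapped to several places made up 22.7% and 16.8% of the gene, ambiguous and multi-mapped reads in the serum libraries of WT1 and WT2 and 5.73% to 10.1% in the other 6, and their part in the results was not tested.

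Lysyl oxidases are secreted, copper-dependent amine oxidases that carry a lysyl tyrosylquinone cofactor. They oxidise lysine side chains of collagens and elastin to aldehydes, which then form the crosslinks that stiffen the extracellular matrix. LOX and LOXL1 are made as proenzymes with a propeptide that BMP1 removes, whereas LOXL2, LOXL3 and LOXL4 carry scavenger receptor cysteine-rich domains ahead of the shared catalytic domain.

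The label of the cells was checked against marker genes. Levels between genes are given as RPKM, the read count scaled to merged exon length and library size, with library sizes scaled by edgeR's TMM method. *MITF*, the regulator of the melanocyte lineage, was at 5.41 ± 0.52 RPKM with serum and 4.46 ± 0.35 without (SD, n = 4), and *S100B* was at 10.5 ± 2.67 and 12.8 ± 4.93. *SOX10* had 0 counts in all 8 libraries, and the pigment genes *PMEL*, *MLANA*, *TYR*, *DCT* and *TYRP1* had mean levels of at most 0.34 RPKM in either condition. Of 4 markers of dedifferentiated melanoma, the receptor kinase *AXL* was at 115 ± 16.1 and 91.8 ± 23.6 RPKM, *NGFR* at 22.5 ± 14.6 and 25.1 ± 18.4, *EGFR* at 1.38 and 1.55 and *SOX9* at 0.027 and 0.079. No test of these is given here. Among matrix-producing cells, the 6 fibroblast markers summed to 2.04 ± 0.64 RPKM with serum and 1.94 ± 0.30 without, most of it *LUM* at 1.71 and 1.35, while *COL1A2* and *COL3A1* had means at or under 0.011, with single libraries up to 0.015 and 0.021. *PDGFRA* went from 0.074 to 0.25 RPKM without overlap, *DCN* from 0.080 to 0.15 and *COL1A1* from 0.16 to 0.18, and their part in the results was not tested. Over all tested genes, 12.6% were higher without serum with no overlap. Of the 4 keratinocyte markers 2 were above 1 RPKM, *KRT10* at 19.4 and 15.6 RPKM and *KRT14* at 7.61 and 6.81, while *KRT1* had 0 counts. *KRT10* did not overlap between conditions, at 17.5 to 22.0 RPKM with serum and 14.7 to 16.4 without. No test of it is given here, nor the share of all genes that were lower without overlap. The endothelial and immune lists had mean sums of at most 0.16 and 0.038 RPKM in either condition, with single libraries up to 0.26 and 0.072. In these bulk libraries fewer cells of a type and less RNA per cell cannot be told apart.

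*LOXL4* (ENSG00000138131) lies on chromosome 10 of GRCh38.p14, from 98247690 to 98268194 on the minus strand, and RefSeq places no other gene over it. Its promoter window, from 250 bases before to 50 after the RefSeq start site (GRCh38.p14, chr10:98268145-98268444, minus strand), is shown because *LOXL4* is the member with the large difference, with matches to the GC box GGGCGG on either strand in capitals.
LOXL4: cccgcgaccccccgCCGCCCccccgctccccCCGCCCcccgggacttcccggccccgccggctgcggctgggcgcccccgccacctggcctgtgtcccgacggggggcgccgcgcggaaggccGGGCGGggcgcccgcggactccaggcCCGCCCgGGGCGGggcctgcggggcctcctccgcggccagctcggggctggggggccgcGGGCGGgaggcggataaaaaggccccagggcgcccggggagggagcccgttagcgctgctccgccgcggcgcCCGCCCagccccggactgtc
The window held 7 GC boxes, a motif present in 45% of 35116 RefSeq windows of this length, and 85.3% of its bases were G or C, more than in 99.8% of the windows. For comparison, the window of *LOX* (chr5:122078210-122078509, minus strand) is shown with matches to ACGTG, the core of the hypoxia response element, in capitals on either strand.
LOX: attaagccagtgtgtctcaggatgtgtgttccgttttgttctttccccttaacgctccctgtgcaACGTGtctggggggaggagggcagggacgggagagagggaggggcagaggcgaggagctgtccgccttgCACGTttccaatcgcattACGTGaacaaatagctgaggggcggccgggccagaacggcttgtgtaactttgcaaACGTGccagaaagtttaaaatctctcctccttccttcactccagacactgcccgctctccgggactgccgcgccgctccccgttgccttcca
It held 4 matches to ACGTG, which 21.4% of windows contain, and 1 GC box. RefSeq windows were at hand for 4 of the 5 members, 7 windows in all. None of the 7 held TATAAA (11.5% of windows), the FOXO motif GTAAACA (3.42%) or the AP-1 motif TGANTCA (7.71%). GC boxes were found in the window of *LOXL4*, in 1 of 3 windows of *LOX* and in 1 of 2 of *LOXL3*, and ACGTG in the 3 windows of *LOX*. The *LOX* windows chr5:122077174-122077473 and chr5:122077125-122077424 overlap and hold 1 ACGTG each, which may be the same match. A match describes letters in the window and was not tested as a binding site.

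*LOXL4* was read at 59.8, 65.1, 82.1 and 83.9 CPM (counts scaled to TMM library size) in the serum libraries of WT1, WT2, WT3 and WT4, and at 343, 291, 462 and 390 CPM in their serum-free libraries. The lowest serum-free library, WT2, was above the highest serum library, WT4, so the groups did not overlap. On average 72.7 ± 12.1 CPM with serum stood against 372 ± 72.4 without (SD, n = 4), and the fitted log2 difference was 2.35 (SE 0.16), or 5.11-fold. Line by line the ratio was 5.75 (WT1), 4.47 (WT2), 5.62 (WT3) and 4.65 (WT4). Whether the ratio differs between lines was not tested, since each line has 1 library per condition. The fold change ranked at 22 from the highest among 17671 tested genes. Of the 4 members that passed the low-count filter, 1 was called in the fit of all genes, where 25.1% of tested genes had an adjusted p under 0.05 in either direction and 11.1% were higher and 14.0% lower without serum. The family was chosen on this contrast, so nothing is read from that count. The balance of the calls depends on scaling, at 1957 higher against 2477 lower here and 2508 against 1843 with upper-quartile scaling. *LOXL4* was also among the genes whose groups did not overlap and were higher without serum (12.6% of tested genes) and among those higher in CPM in all 4 lines (28.8%). With the line as a block its log2 fold change was 2.35 (SE 0.069), and 45.7% of tested genes were called, 23.2% higher and 22.4% lower, and 46.1% with a correction for GC content added, 21.7% higher and 24.5% lower. Over 20 alternative settings the log2 fold change of *LOXL4* ran from 2.18 to 2.46. The 4434 genes behind the 25.1% fell to 1589 without WT1, 1975 without WT2, 1873 without WT3 and 2842 without the serum library of WT1.

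**Figure D1:**
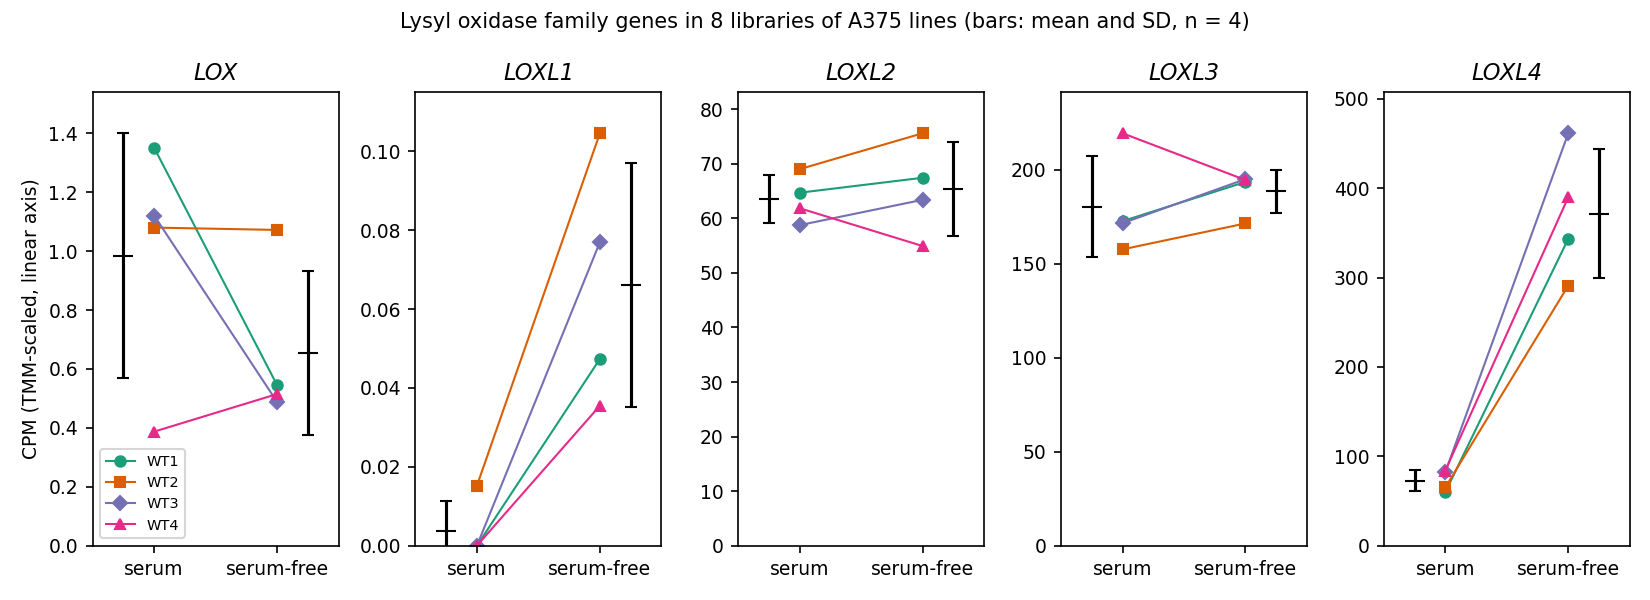
CPM of each member (linear axes, a separate scale per panel) in the serum and serum-free library of each line, joined by line, with the mean and SD of 4 libraries beside them. *LOXL4* was at 59.8 to 83.9 CPM with serum and 291 to 462 CPM without, while *LOXL2* and *LOXL3* overlapped between conditions.

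*LOXL3*, known for collagen crosslinking in the palate and spine, was at 173, 158, 172 and 220 CPM with serum (WT1 to WT4) and at 194, 171, 195 and 195 CPM without. It was higher without serum in WT1, WT2 and WT3 and lower in WT4, whose serum library was the highest of the 8, and the groups overlapped. The log2 fold change was 0.065 (SE 0.10), and it turned to -0.059 with the GC correction and the line as a block. *LOXL2*, best known for crosslinking collagen IV and fibrillar collagens, was at 64.7, 69.0, 58.8 and 61.9 CPM with serum and 67.4, 75.6, 63.4 and 54.9 CPM without. Again WT4 alone was lower without serum, and the groups overlapped. Its log2 fold change was 0.040 (SE 0.099), which turned to -0.13 with the GC correction and block, where it was among the genes called lower, and to -0.037 without the serum-free library of WT2. As a member's serum contrast that call is a description, and nothing is read from it. Over the alternatives the value of *LOXL3* ran from -0.059 to 0.17 and that of *LOXL2* from -0.13 to 0.12. *LOXL3* (ENSG00000115318) spans 74532258 to 74555702 on chromosome 2 and *LOXL2* (ENSG00000134013) spans 23296897 to 23404120 on chromosome 8, both on the minus strand.

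*LOX* (ENSG00000113083, chromosome 5, 122063195 to 122078259, minus strand), the founding member, was close to the limit of these libraries. Its counts were 51, 71, 48 and 11 with serum and 23, 82, 19 and 29 without, in the order of the lines. In CPM it was 1.35, 1.08, 1.12 and 0.39 with serum and 0.54, 1.07, 0.49 and 0.51 without. *LOX* was lower without serum in WT1 and WT3, was nearly equal in WT2, at a log2 ratio of -0.0099, and was higher in WT4, and the groups overlapped. The log2 fold change was -0.58 with an SE of 0.40, and it ran from -0.94 without the serum-free library of WT2 to -0.32 without WT1. *LOXL1* (ENSG00000129038, chromosome 15, 73926462 to 73952136, plus strand), which crosslinks elastin, had counts of 0, 1, 0 and 0 with serum and 2, 8, 3 and 2 without. It did not pass the filter and was not fitted. Summed over the lines, 1 count stood against 15, of which 8 were from WT2, too few for a ratio to be given. In CPM *LOXL1* was higher without serum in 4 of 4 lines and the groups did not overlap, at these low counts. For the 0 counts of WT4 with serum the upper 95% counting limit was 0.13 CPM. Its 2 counts without serum stood at 0.036 CPM, under that limit, so nothing is read from the missing overlap. The share of genes under the filter that did not overlap is not given here.

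In RPKM, the order of the members changed with serum. With serum *LOXL3* was highest at 39.9 ± 5.96, followed by *LOXL4* at 20.2 ± 3.36, *LOXL2* at 10.6 ± 0.73, *LOX* at 0.18 ± 0.074 and *LOXL1* at 0.001 ± 0.002 (SD, n = 4). Without serum *LOXL4* came first at 103 ± 20.1, ahead of *LOXL3* at 41.8 ± 2.54, *LOXL2* at 10.9 ± 1.44, *LOX* at 0.12 ± 0.050 and *LOXL1* at 0.018 ± 0.009. Neighbours in either order did not overlap across the 4 libraries, except that with the length of the longest transcript *LOXL2* at 15.8 to 18.5 RPKM overlapped *LOXL4* at 16.6 to 23.3 RPKM in serum. Among 17425 genes with a known length, whose median was 2.74 RPKM with serum and 2.93 without, *LOXL4* moved from rank 2333 to rank 286 and *LOXL3* from 1048 to 854. The family summed to 70.9 ± 8.01 RPKM with serum and 156 ± 21.1 without, and to 50.7 ± 5.61 and 52.8 ± 1.56 with *LOXL4* set aside. *LOXL4* made up 28.4% ± 2.89 of the sum with serum and 65.8% ± 3.97 without, or 23.4% and 59.6% with the length of the longest transcript. *LOXL3* went from 56.1% ± 2.77 to 27.0% ± 2.37 and *LOXL2* from 15.2% ± 2.38 to 7.16% ± 1.82 of the sum, at levels that overlapped between conditions.

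**Figure D2:**
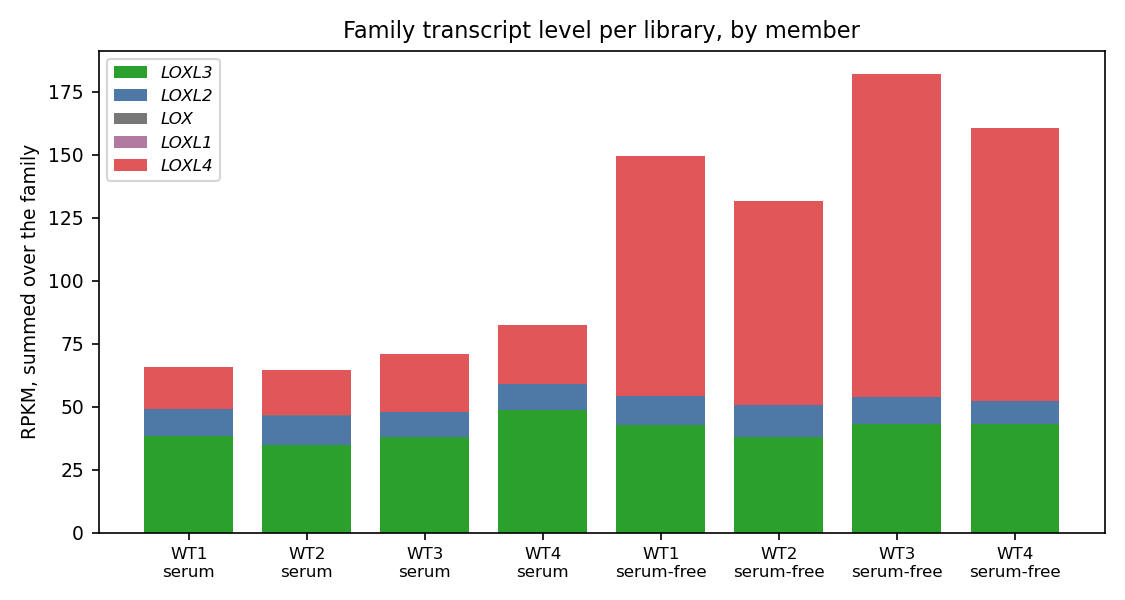
RPKM of the 5 members stacked for each of the 8 libraries, with bars starting at 0. The sum was 64.7 to 82.3 RPKM with serum and 132 to 182 RPKM without, and the part below *LOXL4* stayed between 46.6 and 59.0 RPKM in all 8.

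Differences between the lines are a contrast other than the serum one that chose the family, though read from the same 8 libraries. They were tested with edgeR's quasi-likelihood F-test with Benjamini-Hochberg adjustment over 17671 genes, allowing for condition. Between lines 4055 genes were called, 22.9% of those tested, and *LOXL4* was 1 of them. *LOXL4* was highest in WT3 and lowest in WT2 without serum, and highest in WT4 (83.9 CPM) and lowest in WT1 (59.8 CPM) with serum. It averaged 202, 178, 272 and 237 CPM in WT1 to WT4 (adjusted p = 0.00205 by that F-test in edgeR). Over the alternative settings this adjusted p from edgeR, DESeq2 or limma ran from 2.3e-09 to 0.042. *LOXL2* averaged 66.1, 72.3, 61.1 and 58.4 CPM in WT1 to WT4 and *LOXL3* averaged 183, 165, 183 and 207 CPM, and neither passed the threshold (adjusted p = 0.0703 and 0.071 in edgeR). Both passed it without WT4, at adjusted p = 0.0165 and 0.0463 in edgeR, and without a filter on low counts, at 0.0121 and 0.0223. *LOX*, at 0.95, 1.08, 0.80 and 0.45 CPM, had an adjusted p of 0.276 in edgeR. Each line contributes 2 values to these comparisons, 1 per condition.

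**Figure D3:**
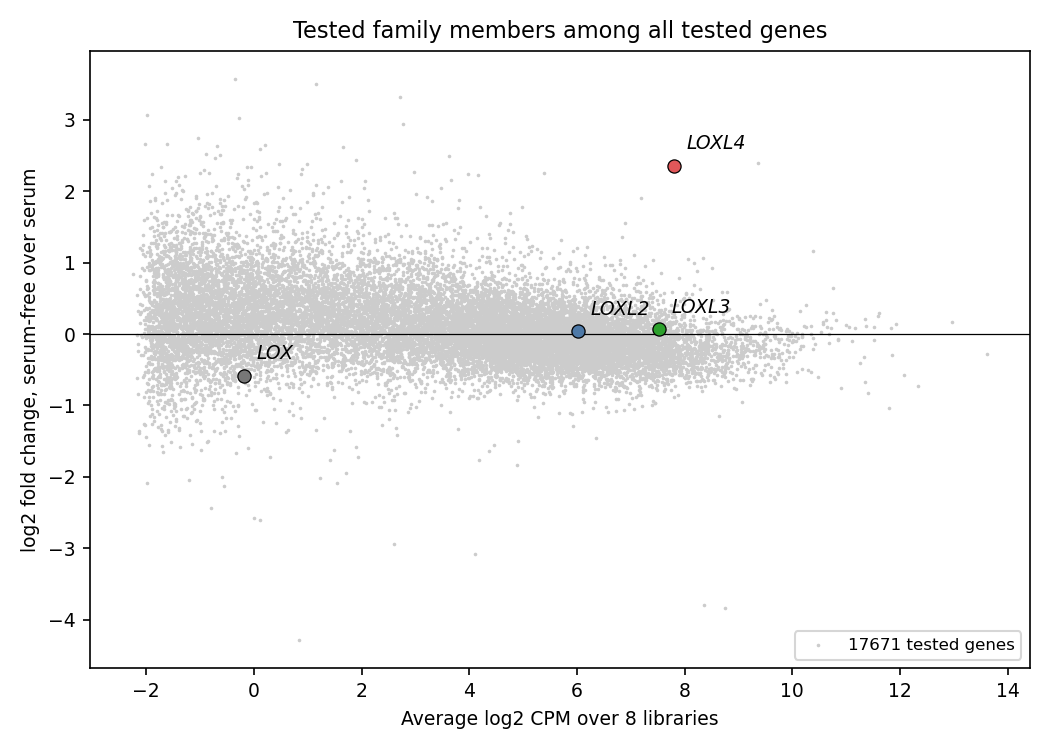
Log2 fold change, serum-free over serum, against the average log2 CPM of all 17671 tested genes (grey), with the 4 tested members in colour. *LOXL4* lies at 2.35, *LOXL3* at 0.065 and *LOXL2* at 0.040, the last pair with a sign that turns under the GC correction, and *LOX* lies at -0.58 among genes of low count.

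The genes over and beside the members were read for position. How the counting treated strand is not given in the sources used here, so reads of overlapping genes on opposite strands cannot be told apart. *SRFBP1*, on the plus strand, spans all of *LOX* and was lower without serum, at 36.7 ± 4.88 against 25.8 ± 2.70 CPM with and without serum (log2 fold change -0.51, Benjamini-Hochberg adjusted p = 0.0116 by the quasi-likelihood test of edgeR, as for the adjusted p-values that follow). Its adjusted p in edgeR was 0.0727, 0.0551 and 0.0623 without WT1, WT2 and WT3, and its log2 fold change was -0.31 with the GC correction and block. *HTRA2* and *DOK1* overlap *LOXL3* and had log2 fold changes of 0.29 and 0.33. Without the block these did not pass the threshold (adjusted p = 0.101 and 0.24 in edgeR). With the line as a block they were 0.29 and 0.36 and passed the threshold (adjusted p = 0.00577 and 0.0129 in edgeR). Without the serum library of WT4 both passed it, at 0.0217 and 0.0134, and likewise without WT4, at 0.0293 and 0.0224. The GC correction with the block left *DOK1* at 0.12 (adjusted p = 0.262 in edgeR). *AUP1*, 2552 bases below *LOXL3*, fell from 128 ± 2.43 to 108 ± 5.53 CPM (log2 fold change -0.25, adjusted p = 0.0139 in edgeR), and its log2 fold change was -0.43 with the GC correction and block. That call was lost without WT1 or WT2 (0.0891 and 0.0833) and without the serum-free library of WT1 (0.0504). *M1AP*, 2181 bases above *LOXL3*, was at 0.17 ± 0.064 and 0.34 ± 0.12 CPM (0.98, adjusted p = 0.114 in edgeR). *LOXL2-AS1*, which overlaps *LOXL2*, was at 1.27 ± 0.43 and 1.86 ± 0.71 CPM (0.53, adjusted p = 0.277 in edgeR), and its log2 fold change ran from 0.28 to 0.72 over the alternatives. On either side of *LOXL2*, *R3HCC1* was at 20.1 ± 3.75 and 21.0 ± 1.31 CPM and *ENTPD4* at 54.4 ± 2.50 and 50.4 ± 2.00, with log2 fold changes of 0.064 and -0.11 (adjusted p = 0.754 and 0.233 in edgeR). The value of *R3HCC1* turned to -0.13 with the GC correction and block, -0.019 without WT1 and -0.031 without its serum library, and that of *ENTPD4* ran from -0.14 to -0.045. *STOML1*, 26790 bases above *LOXL1*, was at 10.2 ± 2.06 and 12.1 ± 2.14 CPM (0.25, adjusted p = 0.324 in edgeR, 0.0349 with the block and 0.112 with the GC correction added), and its log2 fold change ran from 0.15 to 0.38 over the alternatives. *LOXL1-AS1*, which overlaps *LOXL1*, had 18 counts in all and was not fitted, and *FTMT* and *ZNF474-AS1* beside *LOX* and *TBC1D21* below *LOXL1* had 0 counts. Next to *LOXL4*, *PYROXD2* lies 115374 bases above and went from 5.89 ± 0.43 to 14.7 ± 2.70 CPM (log2 fold change 1.32, adjusted p = 0.000996 in edgeR). *R3HCC1L*, 2793 bases below *LOXL4*, fell from 27.8 ± 1.44 to 22.5 ± 1.26 CPM (log2 fold change -0.30, adjusted p = 0.0184 in edgeR), a call lost without WT1, WT2 or WT3 at 0.104, 0.1 and 0.0985 and without the serum library of WT1 or WT3 at 0.0559 and 0.0529. The line as a block gave adjusted p = 2.4e-05 for *SRFBP1*, 0.0013 for *AUP1*, 0.0038 for *R3HCC1L* and 1.4e-06 for *PYROXD2* in edgeR. In that fit 45.7% of all tested genes were called.

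The genes whose profile over the 8 libraries was most like that of *LOXL4* were found by the root mean square difference of log2 CPM, each gene centred on its own mean, among 13255 genes. They were *DEPTOR* at 0.23, *AKAP12* at 0.24, *DHRS3* at 0.30, *YPEL3* at 0.31 and *ANK1* at 0.34. *AKAP12*, a scaffold that anchors protein kinase A, went from 210 ± 33.0 to 1111 ± 383 CPM, and *DEPTOR*, an inhibitor of mTOR, from 2.68 ± 0.55 to 12.8 ± 3.07 CPM. No gene came within 0.2 of *LOXL4*, whereas 3584 did so for *LOXL2* and 3769 for *LOXL3*, whose profiles were nearly flat. The nearest to *LOXL2* were *CAVIN1* and *EHD2*, at 0.046 and 0.048, to *LOXL3* were *KRI1* and *RNASEH2C*, both at 0.050, and to *LOX* were *RPL30-AS1* at 0.19 and *ZNF878* at 0.24.

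Genes that process, feed or receive the action of lysyl oxidases were followed in 8 lists of 86 genes, of which 69 passed the low-count filter. With edgeR's quasi-likelihood test 11 (15.9%) were higher and 4 (5.80%) lower without serum, beside 11.1% and 14.0% of all tested genes, and 54 did not pass the threshold. Their median log2 fold change was 0.11, beside 0.033 over all tested genes. Between lines 36 of the 69 were called, beside 22.9% of all tested genes. With the line as a block the serum counts were 27 and 12, beside 23.2% and 22.4% of all tested genes, and with the GC correction added 22 and 19, beside 21.7% and 24.5%. Without the block they ran from 3 to 14 and from 2 to 8 as lines or libraries were left out, with the lowest count of higher genes without WT2. The higher count was 4, 3 and 4 without WT1, WT2 and WT3, 7 without the serum library of WT1 or WT3, and 6 without the serum-free library of WT3 or WT4. Over all tested genes, calls in either direction also fell, from 4434 to 1589, 1975 and 1873 without WT1, WT2 and WT3. They fell to 2842 and 2974 without the serum library of WT1 or WT3, and to 3438 and 3079 without the serum-free library of WT3 or WT4. The lower count of the lists was 2 with upper-quartile scaling or no filter, 8 without WT4 and 2 without WT1, WT2, WT3, any of their serum libraries or the serum-free library of WT1, WT2 or WT4. Among all tested genes, lower calls went from 2477 to 1843 with upper-quartile scaling. Calls in either direction rose to 5631 without WT4.

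**Figure D4:**
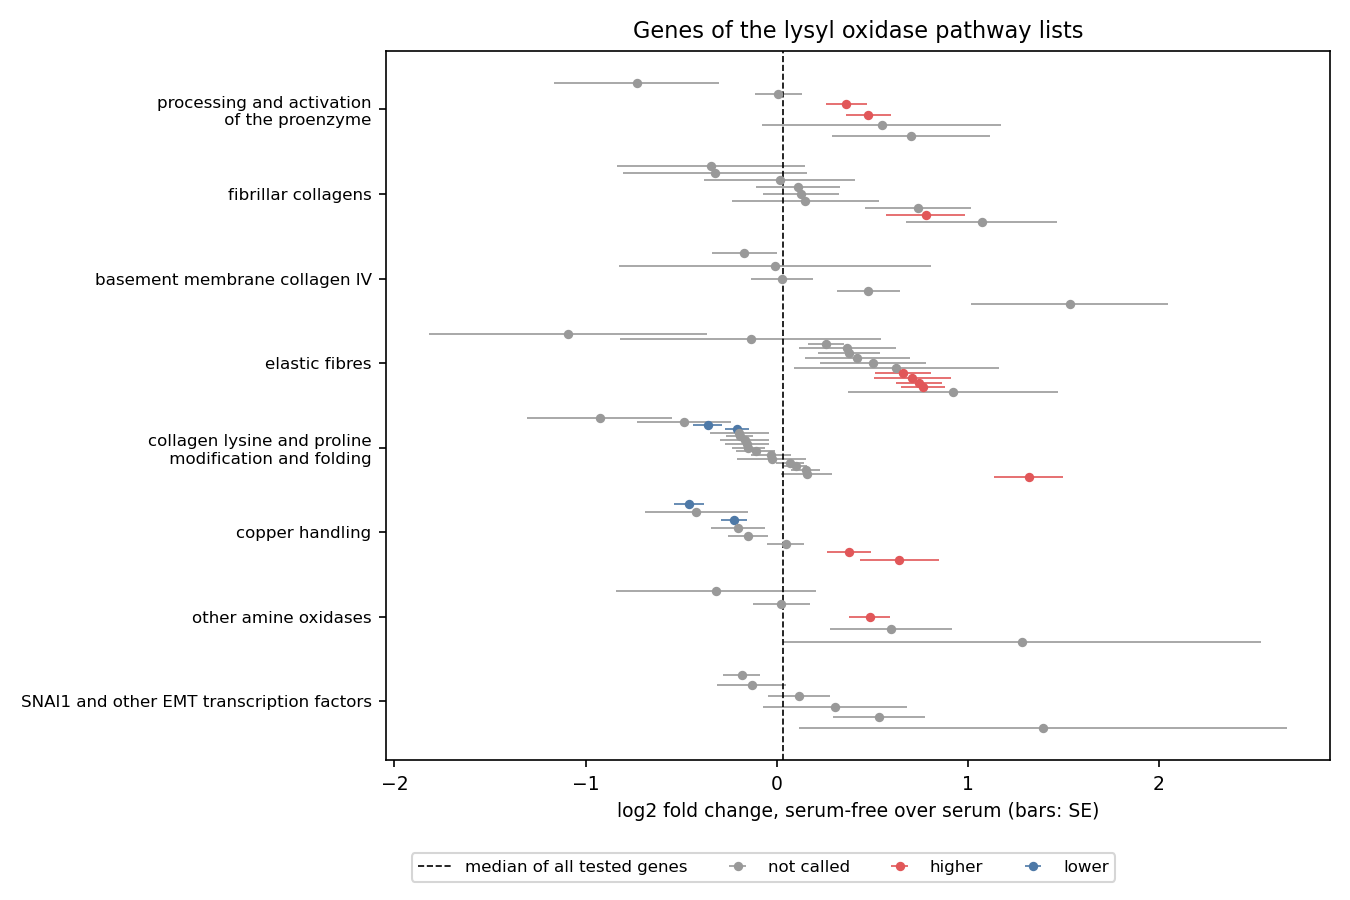
Log2 fold change, serum-free over serum, with its SE for each of the 69 tested genes, in rows by list, with genes past the threshold in colour and the median of all tested genes, 0.033, as a dashed line. Of 13 elastic fibre genes 4 were called higher and 0 lower, and of 17 genes of collagen modification 1 was called higher and 2 lower, beside 11.1% and 14.0% of all tested genes.

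Elastic fibres are the scaffold on which LOX and LOXL1 crosslink elastin. Of 13 tested genes of this list 4 (30.8%) rose and 0 fell in edgeR's test, beside 11.1% and 14.0% of all tested genes. With the line as a block 10 rose and 1 fell, beside 23.2% and 22.4%, and with the GC correction added 7 and 1, beside 21.7% and 24.5%. The 1 that fell with the block alone was *EFEMP1*, at 4.3 ± 2.8 RPKM with serum and 2.0 ± 1.4 without. Its log2 fold change was -1.11, lower in 4 of 4 lines (adjusted p = 6.6e-07 with the block in edgeR and 0.313 without). Without WT2 or WT3 the higher count was 2. Calls over all tested genes, in either direction, fell there from 4434 to 1975 and 1873. At an unadjusted p under 0.05 the list gave 6 and 0, and DESeq2 and limma voom each gave 4 and 0. The share of all tested genes at the unadjusted p is not given here. DESeq2 and limma voom each called more of all genes than edgeR, in both directions. The median log2 fold change was 0.50, beside 0.033 over all tested genes. *LTBP4*, which guides elastin assembly, rose from 7.72 ± 1.28 to 13.1 ± 1.14 RPKM (log2 fold change 0.77, SE 0.12, adjusted p = 0.00235 in edgeR). It was higher in 4 of 4 lines, and its log2 fold change was 0.46 with the GC correction and block. *FBN1*, which encodes fibrillin of the microfibrils, rose from 2.15 ± 0.13 to 3.60 ± 0.65 RPKM (0.74, SE 0.12, adjusted p = 0.00308 in edgeR), also in 4 of 4 lines. *EFEMP2*, the fibulin that brings LOX to elastin, rose from 0.66 ± 0.099 to 1.05 ± 0.053 RPKM (0.66, adjusted p = 0.011 in edgeR), a call lost without WT2 or WT3 at 0.0591 and 0.0685. *EMILIN1*, the most abundant of the list, went from 27.9 ± 7.72 to 45.6 ± 8.41 RPKM (0.71, adjusted p = 0.032 in edgeR), with a log2 fold change of 0.40 under the GC correction and block. That call was lost without a filter (0.104), without WT1, WT2 or WT3 (0.111, 0.0822 and 0.148), without the serum library of any of these lines (0.0899, 0.075 and 0.0754) and without the serum-free library of WT3 or WT4 (0.0767 and 0.0822). The line as a block gave adjusted p = 4.4e-07 for *EMILIN1* and 0.00072 for *EFEMP2* in edgeR. *ELN* itself, the gene of elastin, did not pass the filter.

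Among the processing and activation genes 2 of 6 tested (33.3%) rose and 0 fell, beside 11.1% and 14.0% of all tested genes, with a median log2 fold change of 0.42, beside 0.033. With the line as a block 3 rose and 0 fell, beside 23.2% and 22.4% of all tested genes. With the GC correction added it was 2 and 0, beside 21.7% and 24.5%. The higher count was 0 without WT1 or WT2, and 1 without WT3, the serum library of WT1 or WT3 or the serum-free library of WT2, WT3 or WT4. Calls over all tested genes, in either direction, also fell, from 4434 to 1589, 1975 and 1873 without WT1, WT2 and WT3. Without each of the single libraries named they were 2842 to 3543. For the list, DESeq2, limma voom and an unadjusted p under 0.05 in edgeR each gave 2 and 0. No share of all tested genes at that unadjusted p is given here. Both DESeq2 and limma voom called more of all genes than edgeR, in both directions. *PCOLCE*, which enhances procollagen cleavage, rose from 21.5 ± 3.03 to 29.9 ± 3.74 RPKM (log2 fold change 0.48, SE 0.12, adjusted p = 0.0161 in edgeR), higher in 4 of 4 lines. Its adjusted p in edgeR was 0.052 without WT1 and 0.0813 without WT2, and its log2 fold change was 0.24 with the GC correction and block. *BMP1*, the protease that removes the LOX propeptide, went from 3.53 ± 0.40 to 4.54 ± 0.47 RPKM (0.36, adjusted p = 0.033 in edgeR). That call was lost with the GC correction and block, at a log2 fold change of 0.14 (adjusted p = 0.126 in edgeR), without WT1, WT2 or WT3 (0.0633, 0.0886 and 0.21), without the serum library of WT1 or WT3 (0.0934 and 0.0931) and without the serum-free library of WT2, WT3 or WT4 (0.0912, 0.0981 and 0.0823). The block alone gave adjusted p = 0.0013 for *BMP1* and 1.2e-05 for *PCOLCE* in edgeR. *THBS1*, the most abundant of the list, was at 706 ± 198 RPKM with serum and 425 ± 217 without, and did not pass the threshold (-0.73, SE 0.43, adjusted p = 0.259 in edgeR). It was lower without serum in 4 of 4 lines, and its log2 fold change was -0.45 without the serum-free library of WT4.

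Collagens are the main substrates of the family. Of 9 tested fibrillar collagen genes 1 rose, *COL11A2*, from 0.81 ± 0.16 to 1.40 ± 0.35 RPKM (log2 fold change 0.78, adjusted p = 0.0217 in edgeR), and 0 fell, with a median of 0.13, beside 11.1% and 14.0% and a median of 0.033 over all tested genes. At an unadjusted p under 0.05 it was 3 and 0, as in DESeq2, and limma voom gave 1 and 0. These settings lack a printed share over all tested genes, and DESeq2 and limma voom called more of all genes than edgeR in both directions. The call of *COL11A2* was lost without WT1, WT2 or WT3 (0.0674, 0.0556 and 0.0809), without the serum library of WT1 or WT2 (0.065 and 0.0615) and without the serum-free library of WT3 or WT4 (0.0627 and 0.0607), and its log2 fold change was 0.50 with the GC correction and block. The block alone gave *COL11A2* an adjusted p of 2.99e-05 in edgeR. The higher count was 0 without WT1, WT2, WT3, the serum library of WT2 or the serum-free library of WT3 or WT4, and 2 without WT4, its serum library or the serum-free library of WT2. All tested genes called in either direction, 4434 in the full fit, were 1589, 1975, 1873, 3085, 3438 and 3079 in the former fits. In the latter they were 5631, 6128 and 3543. With the line as a block 3 rose and 1 fell, beside 23.2% and 22.4% of all tested genes, and with the GC correction added 3 and 2, beside 21.7% and 24.5%. The 1 that fell with the block alone was *COL5A2*, the most abundant, at 28.4 ± 11.6 and 22.7 ± 10.5 RPKM (log2 fold change -0.35, adjusted p = 0.000317 with the block in edgeR and 0.671 without), lower in 4 of 4 lines. Without the block its log2 fold change was -0.32 and ran from -0.58 without the serum library of WT4 to -0.042 without the serum-free library of WT4. Of 5 tested collagen IV genes 0 were called by edgeR without the block, beside 11.1% higher and 14.0% lower of all tested genes. Their median log2 fold change was 0.029, beside 0.033. With the block 2 rose and 1 fell, beside 23.2% and 22.4% of all tested genes. With the GC correction added it was 2 and 2, beside 21.7% and 24.5%. The higher count was also 2 with upper-quartile scaling and with a filter of at least 10 counts in every library, and 1 without the serum library of WT4 or the serum-free library of WT2. Higher calls over all tested genes went from 1957 to 2508 with upper-quartile scaling, and also rose with that filter. Without those libraries 6128 and 3543 genes were called in either direction, beside 4434 in the full fit. At an unadjusted p under 0.05 the collagen IV list had 2 higher and 0 lower, as in DESeq2, and limma voom called 0. As for the fibrillar collagens, these settings have no printed share over all tested genes. *COL4A2*, the most abundant of them, was at 26.7 ± 5.64 and 27.2 ± 4.40 RPKM, and its log2 fold change of 0.029 turned negative without WT1 (-0.0032), the serum library of WT1 (-0.021) or WT3 (-0.065), or the serum-free library of WT2 (-0.010) or WT4 (-0.055), and to -0.20 with the GC correction and block, where it was called lower (adjusted p = 0.000774 in edgeR), and rose to 0.17 without the serum library of WT4.

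The enzymes that modify and fold collagen were tested for 17 of 17 genes, and 1 (5.88%) rose and 2 (11.8%) fell, beside 11.1% and 14.0% of all tested genes, with a median log2 fold change of -0.15, beside 0.033. The line as a block gave 3 higher and 6 lower, beside 23.2% and 22.4%, and 2 and 9 with the GC correction added, beside 21.7% and 24.5%. At an unadjusted p under 0.05 it was 1 and 4, in DESeq2 1 and 3 and in limma voom 1 and 2. A share of all tested genes at the unadjusted p is not given here. With DESeq2 or limma voom more of all genes were called than with edgeR, in both directions. The lower count of the list was 1 with upper-quartile scaling or no filter, 4 without WT4, and 1 without WT1, WT2, WT3, any of their serum libraries or any serum-free library. Lower calls over all tested genes went from 2477 to 1843 with upper-quartile scaling. Calls in either direction, 4434 in the full fit, were 5631 without WT4 and 1589 to 3543 in the other fits with a line or library left out. *COLGALT2*, a collagen galactosyltransferase, rose from 0.26 ± 0.038 to 0.65 ± 0.11 RPKM (log2 fold change 1.32, SE 0.18, adjusted p = 0.00181 in edgeR), whereas the related *COLGALT1* fell from 54.8 ± 2.52 to 42.6 ± 3.81 RPKM (-0.36, SE 0.08, adjusted p = 0.00861 in edgeR), each in the same direction in 4 of 4 lines. *COLGALT1* was at -0.54 with the GC correction and block. *PPIB*, a prolyl isomerase of the endoplasmic reticulum, went from 18.9 ± 0.84 to 16.3 ± 0.55 RPKM (-0.21, adjusted p = 0.0318 in edgeR), a call lost without a filter (0.0911) and with upper-quartile scaling (0.108). It was also lost without WT1, WT2 or WT3 (0.131, 0.0932 and 0.114), without the serum library of each of these lines (0.0612, 0.0554 and 0.0677) and without each of the serum-free libraries (0.0807, 0.0601, 0.067 and 0.0953 for WT1 to WT4). The block alone gave *PPIB* an adjusted p of 0.0108 in edgeR. *PLOD3*, a lysyl hydroxylase and the most abundant of the list, was at 65.8 ± 12.0 and 73.3 ± 9.18 RPKM. Its log2 fold change of 0.16 had an adjusted p of 0.42 in edgeR, 0.0187 with the block, and turned to -0.0665 with the GC correction and block (adjusted p = 0.193 in edgeR). It was between 0.069 and 0.28 as lines or libraries were left out.

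Lysyl oxidases receive copper in the secretory pathway from the pump ATP7A. *ATP7A* was at 0.72 ± 0.062 RPKM with serum and 0.75 ± 0.070 without (log2 fold change 0.046, adjusted p = 0.768 in edgeR). Of 8 tested copper handling genes 2 (25%) rose and 2 (25%) fell, beside 11.1% and 14.0% of all tested genes, with a median of -0.18, beside 0.033. DESeq2 and an unadjusted p under 0.05 in edgeR also gave 2 and 2, limma voom gave 1 and 2, the block 2 and 3 (beside 23.2% and 22.4% of all tested genes), and the GC correction with the block 2 and 5 (beside 21.7% and 24.5%). For the unadjusted p no share of all tested genes is given here. More of all genes were called by DESeq2 and by limma voom than by edgeR, in both directions. The higher count of the list was 0 without any 1 of the lines, the serum library of WT1, WT2 or WT3 or the serum-free library of WT3 or WT4, and 1 without a filter, the serum library of WT4 or the serum-free library of WT2. The lower count was 1 with upper-quartile scaling or no filter, without WT1, WT2 or WT3 or any of their serum libraries, and without the serum-free library of WT1, WT2 or WT4. All tested genes called in either direction, 4434 in the full fit, were 1589, 1975, 1873 and 5631 without WT1 to WT4. With a single library left out they ran from 2842 to 6128. Lower calls went from 2477 to 1843 with upper-quartile scaling. *SLC31A1*, the copper importer of the plasma membrane, fell from 11.7 ± 1.23 to 8.48 ± 0.25 RPKM (-0.46, SE 0.08, adjusted p = 0.00421 in edgeR) in 4 of 4 lines. *SCO1*, *CCS* and *ATP7B* had log2 fold changes of -0.22, 0.38 and 0.64 (adjusted p = 0.0366, 0.0367 and 0.0467 in edgeR). The call of *SCO1* was lost without WT1, WT2 or WT3 (0.168, 0.139 and 0.111), without their serum libraries (0.1, 0.0605 and 0.0934) and without the serum-free library of WT1, WT2 or WT4 (0.0632, 0.0851 and 0.0833). That of *CCS* was lost without each line (0.084, 0.11, 0.142 and 0.0727 for WT1 to WT4), without the serum library of WT1, WT2 or WT3 (0.101, 0.0714 and 0.0669) and without the serum-free library of WT2, WT3 or WT4 (0.0616, 0.0882 and 0.103). Without a filter both were lost (0.0728 and 0.0837), and upper-quartile scaling ended that of *SCO1* (0.1) and the GC correction with the block that of *CCS* (0.223, at a log2 fold change of 0.15). The call of *ATP7B* was lost in limma voom (0.0636), without each line (0.115, 0.081, 0.124 and 0.104 for WT1 to WT4), without each serum library (0.122, 0.116, 0.0515 and 0.0563) and without the serum-free library of WT3 or WT4 (0.123 and 0.125). The block alone gave adjusted p = 0.0038 for *SCO1*, 0.0041 for *CCS* and 0.00074 for *ATP7B* in edgeR. *COX17*, the most abundant, was at 18.2 ± 2.48 and 16.4 ± 1.37 RPKM. Its log2 fold change of -0.15 (adjusted p = 0.333 in edgeR) passed the threshold with the GC correction and block, at -0.19 (0.0495), and ran from -0.22 without WT2 to -0.046 without WT4.

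Of 5 tested genes of other amine oxidases 1 rose and 0 fell in edgeR, DESeq2 and limma voom alike and at an unadjusted p under 0.05, beside 11.1% and 14.0% of all tested genes in edgeR, with a median log2 fold change of 0.49, beside 0.033. The block gave 2 and 0, beside 23.2% and 22.4%, also with the GC correction added, beside 21.7% and 24.5%, and the higher count was 0 without WT1, WT2 or WT3. Without these lines 1589, 1975 and 1873 of all tested genes were called in either direction, beside 4434 in the full fit. *SMOX*, spermine oxidase and the most abundant of them, rose from 6.50 ± 0.92 to 9.10 ± 0.56 RPKM (0.49, SE 0.11, adjusted p = 0.00998 in edgeR). Its adjusted p was 0.0683, 0.0564 and 0.0786 without WT1, WT2 and WT3, and its log2 fold change was 0.27 with the GC correction and block. The block alone gave *SMOX* an adjusted p of 9.6e-05 in edgeR. The transcription factors of the epithelial-mesenchymal transition, which include SNAI1, a partner described for LOXL2 and LOXL3, had 0 of 6 tested genes called by edgeR, DESeq2 or limma voom, 0 at an unadjusted p under 0.05 in edgeR, beside 11.1% higher and 14.0% lower of all tested genes in edgeR. There were 2 higher and 0 lower with the line as a block, beside 23.2% and 22.4%, and with the GC correction added, beside 21.7% and 24.5%. Their median log2 fold change was 0.21, beside 0.033. Without the serum-free library of WT2 1 was higher, and without WT4 1 was lower. In these fits 3543 and 5631 of all tested genes were called in either direction. For this list and the amine oxidases, no share of all tested genes at the unadjusted p is given here. In both directions, DESeq2 and limma voom each called more of all genes than edgeR. *SNAI1* was at 9.79 ± 2.21 RPKM with serum and 10.6 ± 1.44 without, and its log2 fold change of 0.12 turned to -0.054 with the GC correction and block and was between 0.020 and 0.26 as lines or libraries were left out. Between lines 5 of the 6 were called, beside 36 of the 69 over all lists and 22.9% of all tested genes.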

How the data were processed

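The authors deposited whole-number read counts per gene, not normalized, for 8 libraries. The submitters' processing notes name cutadapt, TopHat2 2.0.11, HTSeq and GRCh38, while the study's methods name hg19, and the annotation release and strand setting are not given in the sources used here. Ambiguous and multi-mapped reads (8.23% to 11.5% and 5.73% to 22.7%) stayed out of library sizes. Members and lists were chosen with earlier results of these data known. Symbols were matched for 55604 of 58051 genes. *SCO2* and *PECAM1* were not matched and were not analysed here. Genes passing filterByExpr were scaled by TMM and fitted in edgeR 4.0.16 under R 4.3.3 (glmQLFit, robust; glmQLFTest) for condition alone, without a block, and for line with condition as covariate. The Benjamini-Hochberg adjustment ran over all tested genes, with a threshold of 0.05. Lengths and GC content (17425 tested genes) came from a GENCODE release on GRCh37, whose build differs from the counts. Profiles used a prior count of 2 and a mean of at least 50 counts.

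Named genes were the members, their overlapping and nearest genes, the 3 smallest p past the threshold and the highest RPKM of each list, and the most similar profiles. *ATP7A*, *ATP7B*, *ELN* and *EFEMP1* were added to these with their values known. Deviations from condition means correlated at 0.40 to 0.60 between libraries of the same labelled line and at most 0.13 otherwise, so the line number pairs them. The alternatives were that block, RLE and upper-quartile scaling, other filters, DESeq2 1.42.0, limma voom 3.58.1, a GC correction with the block, and each line or library left out, and, for levels, longest transcript, TPM and sizes without TMM.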

Additional observations from a re-analysis of the deposited data

Results flagged for a closer look

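In 4 of 58 sets of 4 libraries a single library stood far from the other 3, by Dixon's ratio of gap to range. Chance flags about 1 in 20 such sets, or 2.9 here. *LOX* in the serum-free library of WT2 was at 1.07 CPM, above 0.49 to 0.54 in the other lines. *LOXL3* in the same library was at 171.5 CPM, below 193.6 to 195.1. *EFEMP2* in the serum-free library of WT1 was at 6.09 CPM, above 5.49 to 5.56. *COX17* in the serum library of WT4 was at 41.8 CPM, above 31.6 to 33.1. The cause was not tested.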

How the results depend on the processing

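The log2 fold change of *LOXL4* kept its sign and size in 20 alternatives, and its difference between lines stayed past the threshold in 8. With the line as a replicate block the genes called went from 4434 to 8067 (4106 higher, 3961 lower), and with the GC correction and replicate block to 8153 of 17671 (3828 and 4325). Higher calls were 1957 (44.1% of calls) beside 2477 lower, and 2508 (57.6%) beside 1843 with upper-quartile scaling. Pathway genes called were 27 higher and 12 lower under the replicate block. Adding the GC correction gave 22 and 19. The lower count was 2 with upper-quartile scaling and 2 without a filter. Under the GC correction and replicate block 2 of the 4 fitted members, *LOXL4* and *LOXL2*, were called, beside 46.1% of tested genes, and nothing is read from it, since the serum contrast chose the family. Signs turned there for *LOXL2* (-0.13, called lower), *LOXL3* (-0.059), *COL4A2* (-0.20, called lower), *PLOD3* (-0.0665), *SNAI1* (-0.054) and *R3HCC1* (-0.13). Without a filter, the adjusted p between lines in edgeR was 0.0121 for *LOXL2* and 0.0223 for *LOXL3*. With the longest transcript, *LOXL4* made up 23.4% of the family with serum and 59.6% without.

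Over fits that left out a line or a library, genes called ran from 1589 to 6128, higher from 620 to 2849, lower from 969 to 3279, and pathway genes from 3 to 14 higher and 2 to 8 lower. Log2 fold changes ran from -0.037 to 0.12 for *LOXL2*, -0.065 to 0.17 for *COL4A2* and -0.031 to 0.18 for *R3HCC1*. The adjusted p between lines in edgeR ran from 0.0165 to 0.412 for *LOXL2* and from 0.0463 to 0.329 for *LOXL3*. The cause of these shifts was not tested. Of all values under alternatives, 1007 kept direction and side of the threshold or moved by less than the spread, 89 lost the threshold, 16 gained it, 146 moved and 14 changed sign. Depth limits *LOX* and *LOXL1*, with at most 82 and 8 counts per library.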
